A study of Mus musculus with 7 samples.

Results

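The Cyp2d and Cyp2j genes are 2 subfamilies of cytochrome P450 enzymes that the mouse liver makes in large amounts. The 10 genes described here were picked by symbol from the per-mouse count tables, and comprise Cyp2d9, Cyp2d10, Cyp2d11, Cyp2d12, Cyp2d22, Cyp2d26, Cyp2d40, Cyp2j5, Cyp2j6 and Cyp2j9. They were taken from 51426 genes in the tables, which hold 23 entries of the 2 subfamilies, and their measured values played no part in the rule. The study asked how loss of TET1, an enzyme that oxidizes methylated cytosine in DNA, alters the liver of mice on a high-fat diet (HFD). Liver RNA was sequenced from 3 WT mice and 4 mice with a whole-body knockout of TET1 (TET1 KO). All 7 were males, labelled as C57BL/6J, which received the HFD for 16 weeks from the age of 8 weeks. The study's methods name the line B6;129S4-Tet1tm1.1Jae/J for the whole-body deletion, so TET1 was lost in every tissue and not in hepatocytes alone. The paper gives the sequenced mice as TET1 wt/wt and TET1 -/-, a separate line from its other whole-body knockout, made with a beta-actin Cre, and speaks of littermate controls for this line. No chow-fed livers are in the comparison, so every value refers to animals on the HFD.

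Cytochrome P450 enzymes are heme proteins of the endoplasmic reticulum that insert an oxygen atom into lipids, steroids and drugs, with electrons delivered by cytochrome P450 reductase. Mouse Cyp2d genes form a tandem cluster of close relatives of the human drug-metabolizing gene CYP2D6, and Cyp2d9 is known as a testosterone hydroxylase of male liver. The Cyp2j enzymes are best known as epoxygenases, which turn arachidonic acid into epoxyeicosatrienoic acids. The epoxides are then hydrolysed, chiefly by soluble epoxide hydrolase, the product of Ephx2.

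The 7 Cyp2d members lie within 424 kb of chromosome 15 in the GRCm38.p6 build, from Cyp2d22 at chr15:82370527-82380260 to Cyp2d26 at chr15:82790107-82794452. The 3 Cyp2j members lie within 148 kb of chromosome 4, from Cyp2j6 at chr4:96516138-96564305 to Cyp2j5 at chr4:96627432-96664171. The coding sequences of the 4 closest Cyp2d members, Cyp2d9, Cyp2d10, Cyp2d11 and Cyp2d12, are all 1515 bases long in GENCODE M1. In that set the most alike were Cyp2d10 and Cyp2d11, at 94.7% of aligned bases, and the least alike were Cyp2d11 and Cyp2d12, at 90.8%. Cyp2d26 matched Cyp2d9 at 81.4% of bases and Cyp2d22 matched it at 78.2%. The 3 Cyp2j members were less alike, with 75% to 79% of bases identical between pairs.

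Such likeness bears on how reads can be counted. Of all runs of 50 bases in the transcript of Cyp2d10, 37.1% also occur in the transcript of another Cyp2d gene. The share was 34.5% for Cyp2d11, 28.9% for Cyp2d9, 16.6% for Cyp2d40, 16.2% for Cyp2d12, 10.9% for Cyp2d26 and 6.14% for Cyp2d22. It was at most 0.422% for the 3 Cyp2j members. How reads that match several genes were counted is not given in the sources used here, so the split of reads among Cyp2d9, Cyp2d10, Cyp2d11 and Cyp2d12 is uncertain, and most of all for the 2 with few counts, Cyp2d11 and Cyp2d12.

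The promoters of the Cyp2d members are shown because they can be set beside very unequal levels. RefSeq promoter windows, from 250 bases before to 50 bases after the annotated start, were found for 8 members, and none was found for Cyp2d12 and Cyp2d22. The 5 Cyp2d windows share a run of 10 bases around a TATA sequence. Each line gives 100 bases on the strand of the gene, 5′ to 3′, with that run in capitals near the right end and, further left, each exact match to the motif AGGNCANAGGNCA in capitals. This motif is a direct repeat with 1 base between its units, of the kind that HNF4A and related nuclear receptors bind.
Cyp2d9: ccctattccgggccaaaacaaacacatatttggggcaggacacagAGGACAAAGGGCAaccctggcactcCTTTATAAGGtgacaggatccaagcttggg
Cyp2d10: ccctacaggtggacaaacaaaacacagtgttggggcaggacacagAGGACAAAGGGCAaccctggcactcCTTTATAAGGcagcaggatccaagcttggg
Cyp2d40: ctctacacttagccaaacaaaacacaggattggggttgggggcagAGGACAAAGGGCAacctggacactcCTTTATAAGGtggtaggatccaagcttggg
Cyp2d11: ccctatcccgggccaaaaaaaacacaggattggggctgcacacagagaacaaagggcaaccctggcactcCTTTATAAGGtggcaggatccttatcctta
Cyp2d26: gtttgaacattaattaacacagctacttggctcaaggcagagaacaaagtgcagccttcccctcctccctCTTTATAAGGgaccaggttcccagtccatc

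The windows lie at chr15:82452278-82452377 (plus strand) for Cyp2d9, chr15:82407197-82407296 for Cyp2d10, chr15:82764185-82764284 for Cyp2d40, chr15:82394037-82394136 for Cyp2d11 and chr15:82794248-82794347 for Cyp2d26, the last 4 on the minus strand. Position by position, Cyp2d11 had 82 of the 100 bases of Cyp2d9, Cyp2d10 had 86, Cyp2d40 had 79 and Cyp2d26 had 35. An exact match to the repeat, searched on both strands, was present in 3 of the 5 Cyp2d promoters (Cyp2d9, Cyp2d10 and Cyp2d40) and in 0 of the 3 Cyp2j promoters, compared with 0.381% of 32851 RefSeq promoter windows of 300 bases. These 3 windows are alike over most of their bases, so their matches are not separate cases. The 13 bases at the same place in Cyp2d11 differ from the Cyp2d9 match by G3A, counted from 1 at the 5′ end of the motif. The nearest 13 bases in Cyp2d26 carry G3A and G10T. The shared run CTTTATAAGG was picked as the longest run common to the 5 Cyp2d windows, so its presence in all 5 was fixed beforehand. It occurs in 0.0974% of all windows. The shorter motif TATAAA, which overlaps this run when read on the opposite strand, occurs in 13.6% of windows and in 6 of the 8 member windows. A match in letters describes these sequences and does not show that a factor binds.

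Library totals were 15005277 to 22746138 counts, and levels are given in CPM, the counts divided by library size and TMM factor, so that 1 CPM stands for 14.2 to 24.1 reads. Tet1 had 1 to 4 counts in each WT liver and 1 to 4 in each TET1 KO liver, too few to check the genotype labels. The 6 hepatocyte markers, led by Alb, summed to 62858 to 84961 CPM in every liver, and of 5 kidney tubule markers 4 were at 0 throughout. The remaining kidney marker, Lrp2, was at 0.11 to 1.53 CPM. The 5 cholangiocyte markers summed to 29.7 to 37.8 CPM in WT and 46.1 to 68 CPM in TET1 KO, with all 5 log2 fold changes above 0 and none of the 5 at 0 throughout. Of these 5 markers edgeR called 0, 4 had an unadjusted p under 0.05, and DESeq2 called 2, Sox9 and Epcam (adjusted p = 0.00286 and 0.0421). TET1 KO 4 stood apart for Epcam, at 4.87 CPM against 0.689 to 0.986 CPM in the other TET1 KO livers, and for Krt19, at 6.68 against 1.06 to 1.69 CPM. The 5 endothelial markers summed to 126 to 128 CPM in WT and 106 to 124 CPM in TET1 KO, also without overlap. DESeq2 further called 1 marker each of the endothelial (Lyve1, lower), stellate (Col1a1, lower), hepatocyte (Apoa1, higher) and intestinal epithelium (Fabp2, lower) lists, where edgeR called 0. Fabp2 was at 119 to 199 CPM in WT and 53.8 to 125 CPM in TET1 KO. In whole liver, fewer cells of a type and less RNA per cell cannot be told apart. The part of cell composition in the values below was not tested.

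Per kb of transcript, the members spanned a wide range in WT livers. Cyp2d26 and Cyp2d9 were highest, at 597 ± 73.1 and 559 ± 40.3 CPM per kb (mean ± SD, n = 3), and their livers overlapped, so these neighbours did not differ beyond their spread. Cyp2d10 followed at 403 ± 31.3 CPM per kb, below all WT values of both. Cyp2j5 was next, at 194 ± 41.8 CPM per kb. Cyp2d40 at 78.5 ± 14.8 and Cyp2d22 at 72.9 ± 4.98 CPM per kb overlapped each other. Cyp2j6 at 18.2 ± 0.915, Cyp2j9 at 8.02 ± 2.74, Cyp2d12 at 0.711 ± 0.291 and Cyp2d11 at 0.312 ± 0.12 CPM per kb followed with no overlap between neighbours in this order. The transcript lengths are those of GENCODE M1, in which the Cyp2d40 model has a coding length of only 1017 bases, and the lack of overlap between Cyp2d12 and Cyp2d11 rests on 16 against 15 counts in WT 2. The WT mean of Cyp2d9 per kb was 1792 times that of Cyp2d11, 2 genes whose coding sequences are 93.3% identical. Cyp2d26, the highest member, lacks the exact repeat in its promoter window, as Cyp2d11 does, while Cyp2d40 at 78.5 CPM per kb holds it. Any link between the repeat and level was not tested.

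**Figure D1:**
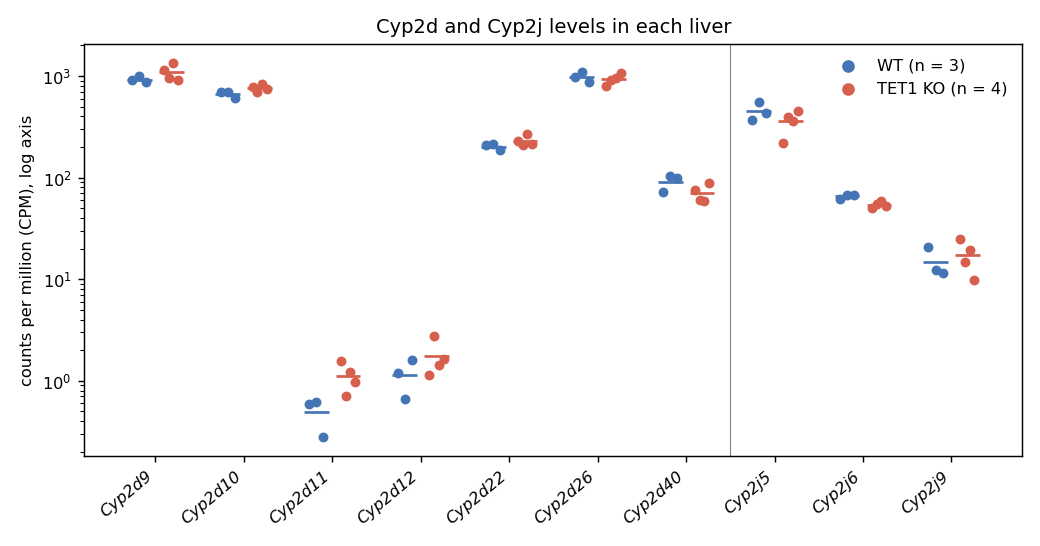
Levels of the 10 genes in each liver, in CPM on a log axis, with 1 point per liver and a bar at the mean of the 3 WT (blue) and 4 TET1 KO (red) livers. Cyp2d9, Cyp2d10 and Cyp2d26 sit near the top in every liver, Cyp2d11 and Cyp2d12 near 1 CPM, and the genotypes separate only for Cyp2d11 and Cyp2j6.

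Loss of TET1 left no member called as changed. Of the 10 members, all of which passed the filter on low counts, 0 were called higher and 0 lower by the quasi-likelihood test of edgeR (call at a Benjamini-Hochberg adjusted p below 0.05), and DESeq2 also called 0. Across all 14754 genes tested, 2.02% were called, 0.874% higher and 1.15% lower in TET1 KO, and DESeq2 called 9.14%. At an unadjusted p under 0.05, 2 members passed (Cyp2d11 and Cyp2j6), against 26.3% of all genes. The WT and TET1 KO livers did not overlap for the same 2 members, compared with 22.5% of all genes, so neither share stood above the background. The log2 fold change (TET1 KO over WT) was above 0 for 6 members and below 0 for 4, with a median of 0.19, beside a median of 0.012 over all genes.

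Cyp2d9, the male-type testosterone hydroxylase, was counted at 910, 995 and 864 CPM in the WT livers and at 1137, 966, 1352 and 917 CPM in the TET1 KO livers. The groups overlapped, and TET1 KO 3 was the highest of all 7. As TET1 KO over WT, this gave a log2 fold change of 0.24 ± 0.19 (SE), with a 95% interval from -0.17 to 0.66, and the adjusted p of edgeR was 0.418. The interval allows a level in TET1 KO between 0.89 and 1.58 times that of WT, so a doubling or a halving of this abundant transcript lay outside it.

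Cyp2d10, its neighbour in sequence, was at 689, 699 and 605 CPM in WT and at 771, 692, 838 and 742 CPM in TET1 KO. All but 1 of the TET1 KO livers were above every WT liver. Here the log2 fold change was 0.20 ± 0.15 (SE), with an interval from -0.14 to 0.53, and the adjusted p of edgeR 0.428. Cyp2d26, a member of the highest-expressed group, was at 979, 1104 and 864 CPM in WT and at 799, 906, 950 and 1061 CPM in TET1 KO. The ranges lay over each other, with a log2 fold change of -0.08 ± 0.17 (SE), an interval from -0.46 to 0.30 and edgeR adjusted p = 0.791.

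Cyp2d22, often treated as the nearest mouse counterpart of CYP2D6, was at 207, 213 and 186 CPM in WT and at 227, 208, 269 and 215 CPM in TET1 KO. Its log2 fold change was 0.18 ± 0.14 (SE) with an interval from -0.12 to 0.49, that is 0.921 to 1.4 times WT, and its adjusted p was 0.405 in edgeR. Cyp2d40 was at 71.4, 103 and 98.6 CPM in WT and at 75.6, 60.3, 58.2 and 87.9 CPM in TET1 KO. TET1 KO 2 and 3 were below every WT liver, while the other two lay within the WT range. For Cyp2d40 the log2 fold change was -0.37 ± 0.18 (SE), its interval ran from -0.77 to 0.03 and its adjusted p was 0.217 in edgeR.

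Cyp2d11 had the largest fold change of the members and the lowest counts. It was counted 12, 15 and 5 times in the WT livers and 25, 10, 24 and 21 times in the TET1 KO livers, which is 0.591, 0.622 and 0.276 CPM against 1.57, 0.704, 1.23 and 0.974 CPM. Every TET1 KO liver was above every WT liver after scaling, although TET1 KO 2 had fewer raw counts than WT 1 and 2. After scaling, the log2 fold change was 1.14 ± 0.41 (SE), with an interval from 0.23 to 2.05, an unadjusted p of 0.019 and edgeR adjusted p = 0.123, so it did not pass. Cyp2d11 shares stretches of sequence with Cyp2d9 and Cyp2d10, which had between 9829 and 26434 counts in each library, and the part of reads from these genes in its few counts was not tested. Cyp2d12 was at 1.18, 0.663 and 1.60 CPM in WT and at 1.13, 2.75, 1.43 and 1.62 CPM in TET1 KO, with overlapping groups. Its log2 fold change was 0.60 ± 0.39 (SE), the interval ran from -0.26 to 1.46 and the adjusted p was 0.34 in edgeR.

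Among the epoxygenases, Cyp2j5 was by far the most counted. It was at 369, 561 and 432 CPM in WT and at 221, 397, 360 and 450 CPM in TET1 KO. TET1 KO 1 was the lowest of all 7 livers, TET1 KO 3 was just below the WT range, and the other two were within it. Its log2 fold change was -0.35 ± 0.23 (SE), with an interval from -0.86 to 0.17 and edgeR adjusted p = 0.357, so levels between 0.55 and 1.12 times WT were all within reach. Cyp2j6 was the least variable member, at 61.8, 67.3 and 67.7 CPM in WT and 50.3, 54.8, 58.8 and 52.0 CPM in TET1 KO. Every TET1 KO liver was below every WT liver. Its difference corresponds to a log2 fold change of -0.28 ± 0.12 (SE), with an interval from -0.54 to -0.02, an unadjusted p of 0.0356 and edgeR adjusted p = 0.161, so it did not pass either. Cyp2j9 was at 20.8, 12.3 and 11.6 CPM in WT and at 25.0, 14.6, 19.4 and 9.74 CPM in TET1 KO. Both the highest and the lowest of the 7 livers were TET1 KO, and the log2 fold change was 0.20 ± 0.30 (SE) with an interval from -0.46 to 0.87 and edgeR adjusted p = 0.688.

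**Figure D2:**
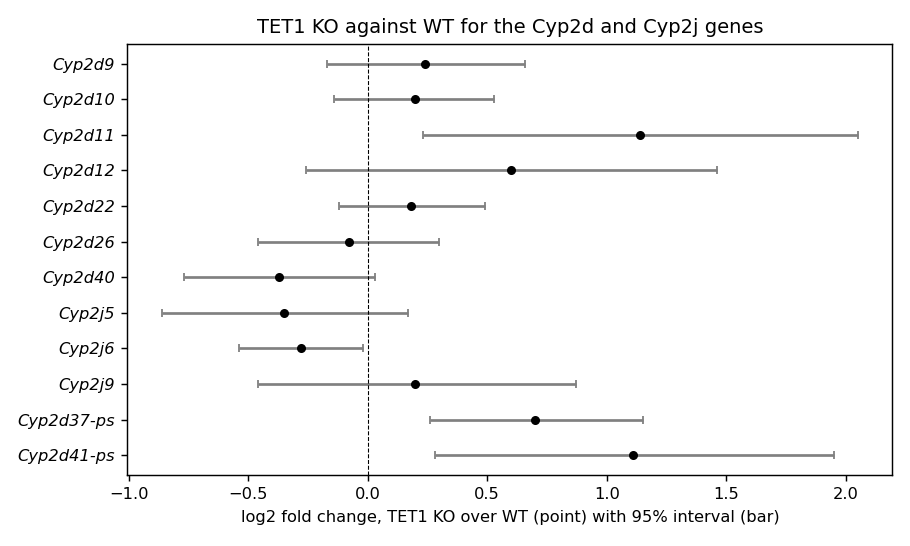
The log2 fold change of TET1 KO over WT (point) and its 95% interval (bar) for the 10 genes and for 2 pseudogenes of the Cyp2d cluster. The interval includes 0 for 8 of the 10 genes, leaves it on the right for Cyp2d11 and on the left for Cyp2j6, and none of the 12 has an adjusted p under 0.05 in edgeR.

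The spread between mice differed among members. In the WT livers the coefficient of variation was 5.03% for Cyp2j6, 6.83% for Cyp2d22, 7.21% for Cyp2d9 and 7.75% for Cyp2d10, and it rose to 21.6% for Cyp2j5, 34.2% for Cyp2j9, 38.6% for Cyp2d11 and 40.9% for Cyp2d12. In the TET1 KO livers Cyp2j6 was again the lowest, at 6.81%, and Cyp2d12 the highest, at 40.8%. The smallest standard errors of the fold change belonged to Cyp2j6, Cyp2d22 and Cyp2d10.

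The make-up of each subfamily can be read without scaling between libraries. Cyp2d9, Cyp2d26 and Cyp2d10 together supplied most of the reads counted on the Cyp2d members. Cyp2d9 held 31.8%, 31.9% and 33% of these reads in WT and 37.7%, 34.1%, 39% and 30.3% in TET1 KO. Cyp2d26 held 34.2%, 35.4% and 33% in WT and 26.5%, 31.9%, 27.4% and 35.1% in TET1 KO. Cyp2d9 thus led Cyp2d26 in TET1 KO 1, 2 and 3, while TET1 KO 4 had the WT order seen in WT 1 and 2. Cyp2d10 held 22.4% to 24.1% in WT and 24.2% to 25.6% in TET1 KO, and these shares were not tested. The 7 Cyp2d members together took 0.265% to 0.33% of each WT library and 0.268% to 0.329% of each TET1 KO library.

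Cyp2j5 held 81.7%, 87.6% and 84.5% of the reads of the 3 Cyp2j members in WT and 74.6%, 85.1%, 82.1% and 87.9% in TET1 KO. TET1 KO 1 stood at one end for each Cyp2j gene, with the lowest share of Cyp2j5 and the highest of Cyp2j6 (17%) and Cyp2j9 (8.44%). The Cyp2j members together took 0.047% to 0.0679% of each WT library and 0.029% to 0.0519% of each TET1 KO library, and these ranges overlapped.

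**Figure D3:**
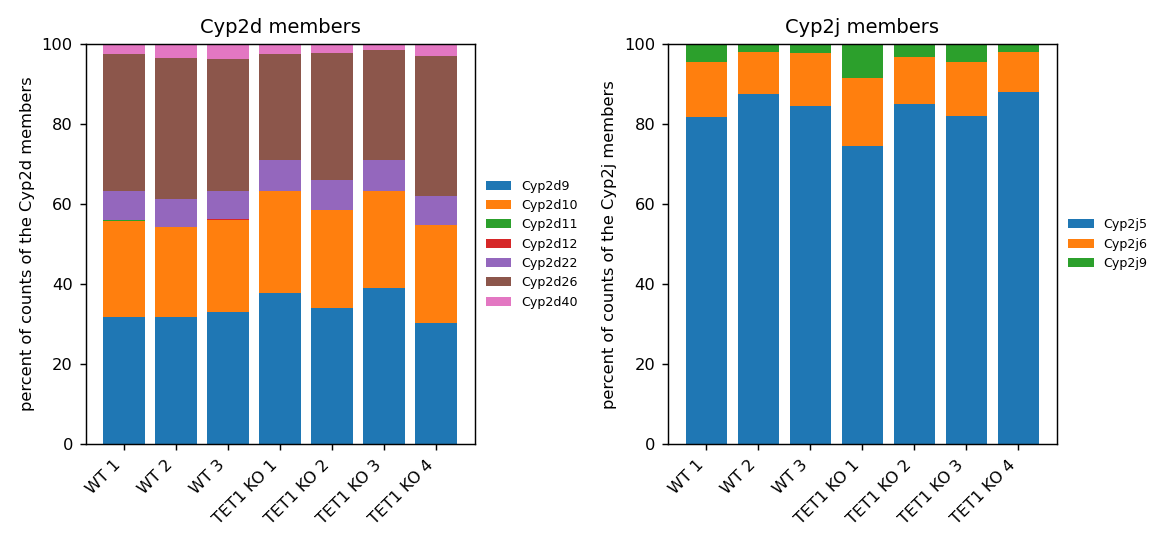
Share of the reads of the 7 Cyp2d members (left) and of the 3 Cyp2j members (right) that each gene holds, in percent, with 1 bar per liver. Cyp2d9, Cyp2d10 and Cyp2d26 fill most of each left bar and Cyp2j5 most of each right bar, where TET1 KO 1 has the smallest Cyp2j5 share (74.6%).

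Of the 13 other Cyp2d and Cyp2j entries, 8 had no count in any liver and only 2, both pseudogenes of the Cyp2d cluster, passed the filter. Cyp2d37-ps was at 19.6, 13.8 and 12.7 CPM in WT and at 30.2, 22.9, 27.8 and 19.2 CPM in TET1 KO, where only TET1 KO 4 fell within the WT range. Its log2 fold change was 0.70 ± 0.20 (SE) with adjusted p = 0.0799 (edgeR) or 0.0341 (DESeq2). Cyp2d41-ps was at 2.31, 1.82 and 2.26 CPM in WT and at 8.70, 2.82, 3.58 and 3.39 CPM in TET1 KO, so the groups did not overlap and TET1 KO 1 stood far above the rest. Its log2 fold change was 1.11 ± 0.38 (SE) with adjusted p = 0.107 (edgeR) or 0.0574 (DESeq2). The part of reads from the expressed Cyp2d genes in the counts of these pseudogenes was not tested. The coding genes Cyp2d34, Cyp2j8 and Cyp2j11 had at most 4 counts in any library.

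Outside the Cyp2d and Cyp2j subfamilies, other P450 families had called genes in the same livers. In the Cyp2c family, 1 of 13 tested genes was higher and 1 lower, with a median log2 fold change of -0.60. Of the Cyp2a and Cyp2b genes, 1 of 8 was lower (median -0.93), and of the Cyp3a genes, 1 of 4 was lower (median -0.82). In the Cyp4 family, 3 of 14 were higher and 1 lower (median -0.07). The largest absolute log2 fold change of the 10 members was 1.14, whereas the Cyp2a and Cyp2b genes reached -3.59 and the Cyp2c genes ran from -2.26 to 1.83. These counts moved with the settings and with single livers. The Cyp2a and Cyp2b call was lost with robust dispersions and without WT replicate 2 or TET1 KO replicate 2 or 3, the Cyp3a call with a replicate block and without any 1 of WT replicates 1 and 2 and TET1 KO replicates 1, 2 and 3, and the 4 Cyp4 calls fell to 0 without TET1 KO replicate 2, to 1 without WT replicate 1 or 2 or TET1 KO replicate 3, and to 2 without TET1 KO replicate 1. Of the 2 Cyp2c calls, 1 was left without WT replicate 2 or TET1 KO replicate 3, and 4 genes were called without TET1 KO replicate 4. Whether the members differ from these families was not tested.

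**Figure D4:**
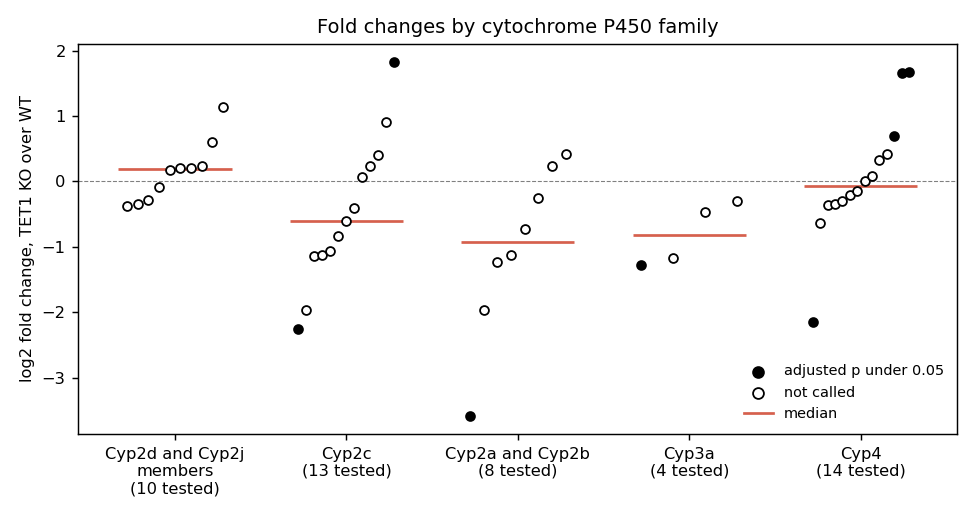
The log2 fold change of each tested gene of 5 P450 groups, with filled points for genes at an adjusted p under 0.05, open points for the rest and a red line at the median. The 10 Cyp2d and Cyp2j genes lie between -0.37 and 1.14 with 0 filled points, and each of the other families has at least 1.

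The genes that work with these enzymes were taken from lists by function. Of 5 tested genes of P450 electron transfer, among them the reductase Por, edgeR called 0, 2 had an unadjusted p under 0.05 and DESeq2 called 0. The smallest p values there belonged to Cyb5b, a cytochrome b5, with a log2 fold change of -0.52 ± 0.19 (SE) and edgeR adjusted p = 0.123, and Pgrmc1, a heme-binding partner of P450s, at -0.41 ± 0.18 with edgeR adjusted p = 0.186. Of 11 genes of heme synthesis and breakdown, edgeR called 0, 3 had an unadjusted p under 0.05 and DESeq2 called 1. These were led by Hmox1, the heme-degrading oxygenase, at -0.83 ± 0.27 (adjusted p = 0.0965 in edgeR, 0.0367 in DESeq2), and Alad, an early enzyme of heme synthesis, at 0.51 ± 0.17 (edgeR adjusted p = 0.102). In this list 8 of the 11 log2 fold changes were below 0, among them that of Alas1, the first and rate-limiting enzyme of heme synthesis, which is named after its value was seen. Alas1 was at 382, 536 and 634 CPM in WT and at 300, 133, 124 and 461 CPM in TET1 KO, with overlapping groups. Its log2 fold change was -1.02 ± 0.40 (adjusted p = 0.145 in edgeR, 0.229 in DESeq2).

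For the arachidonic acid route of the Cyp2j enzymes, 2 of 9 tested genes were lower in TET1 KO and 0 higher, with a median log2 fold change of -0.18. Ephx1, microsomal epoxide hydrolase, was at 455, 552 and 320 CPM in WT and at 132, 163, 179 and 209 CPM in TET1 KO, and fell by 1.37 ± 0.21 (SE) in log2 units, with edgeR adjusted p = 0.0117. Elovl5, an elongase of polyunsaturated fatty acids, was at 530, 765 and 334 CPM in WT and at 115, 153, 105 and 235 CPM in TET1 KO, and fell by 1.84 ± 0.31 with edgeR adjusted p = 0.0196. Without WT replicate 2 the adjusted p values in edgeR were 0.0719 for Ephx1 and 0.107 for Elovl5, and Elovl5 also missed the threshold without TET1 KO replicate 2 (0.0556) or 3 (0.062). Ephx2, named here after its value was seen because its enzyme acts on the Cyp2j products, had a log2 fold change of 0.17 ± 0.16 with edgeR adjusted p = 0.519.

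Of 23 transcription factors that act on hepatic P450 genes, edgeR called 0, 5 had an unadjusted p under 0.05 and DESeq2 called 1. Nr1i3, which encodes the drug-sensing receptor CAR, was at 519, 423 and 323 CPM in WT and at 736, 584, 616 and 553 CPM in TET1 KO, with no overlap, a log2 fold change of 0.56 ± 0.19 (SE) and adjusted p = 0.105 (edgeR) or 0.0481 (DESeq2).

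Since Cyp2d9 is a male-type gene, lists of other sex-biased liver genes were set beside it. The lists followed earlier analyses of these same livers and are not independent evidence. Of 12 male-biased genes, edgeR called 6 higher in TET1 KO and 0 lower, with a median log2 fold change of 1.31. The called genes were Slco1a1, Cyp7b1, Cyp4a12a, Cyp4a12b, Selenbp2 and Serpina12. DESeq2 called 8 genes of this list, and 1 of them, the fatty acid elongase Elovl3, was lower. It is named after its values were seen. Elovl3 was at 63.8, 66.8 and 57.7 CPM in WT and at 18.7, 38.4, 54.6 and 21.6 CPM in TET1 KO, with no overlap and a log2 fold change of -0.91 ± 0.31 (SE), where adjusted p = 0.104 (edgeR) or 0.0341 (DESeq2). Slco1a1, an organic anion transporter, was at 45.1, 64.4 and 72 CPM in WT and at 272, 194, 202 and 140 CPM in TET1 KO, a log2 fold change of 1.74 ± 0.23 (SE) with edgeR adjusted p = 0.00736. Cyp7b1, an oxysterol hydroxylase, rose by 1.20 ± 0.23 with edgeR adjusted p = 0.0271. The count of male-biased genes called rested on single livers, and the number fell to 1 without WT replicate 2, to 1 without TET1 KO replicate 2 and to 3 without WT replicate 1 or TET1 KO replicate 3. Slco1a1 missed the threshold only without WT replicate 2 (0.0501), and Cyp7b1 without any 1 of WT replicates 1 and 2 and TET1 KO replicates 1, 2 and 3 (0.0506 to 0.149). Of 6 tested female-biased genes, 4 had a log2 fold change below 0 and 2 above, with a median of -1.09. In this list edgeR called 0, 3 had an unadjusted p under 0.05 and DESeq2 called 1. The smallest p values belonged to Cyp2a4 at -1.97 ± 0.57 (edgeR adjusted p = 0.0814) and Fmo2 at -1.05 ± 0.34 (edgeR adjusted p = 0.0976). Cyp2a4 passed without WT replicate 3 (0.0191) or TET1 KO replicate 4 (0.0438) and with no filter on low counts (0.048). The log2 fold change of Cyp2d9, 0.24, was below the median of the 12 male-biased genes, 1.31. Their range, from -0.91 to 3.16, is wide enough to hold an unchanged gene, and whether Cyp2d9 moved with them was not tested.

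The genes next to the clusters were read from the same fit, in which 26.3% of all genes had an unadjusted p under 0.05. The groups did not overlap for 22.5% of all genes. Of the 9 tested neighbours of the Cyp2d cluster, edgeR called 0, 3 had an unadjusted p under 0.05 and DESeq2 called 0. Their log2 fold changes lay between -0.15 and 0.69, with 5 of the 9 below 0 and 1 without overlap between the groups. Of the 7 tested neighbours of the Cyp2j cluster, edgeR called 0, 3 had an unadjusted p under 0.05 and DESeq2 called 1, and their log2 fold changes lay between -0.60 and 0.57, with 5 of the 7 below 0 and 3 without overlap between the groups. The gene that DESeq2 called was Jun, which encodes a subunit of the AP-1 transcription factor and is named after its value was seen, at a log2 fold change of -0.60 (adjusted p = 0.0888 in edgeR, 0.0417 in DESeq2).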

How the data were processed

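Liver RNA of 3 WT and 4 TET1 KO mice was analysed. The authors deposited 1 table of raw read counts per mouse, not normalized. The submitters' processing notes name Trimmomatic 0.36, GSNAP, featureCounts 1.5.3 and the GRCm38 build. The library kit marks strand, and the counting settings are not given in the sources used here, so overlapping and antisense genes are uncertain. Tables were joined by Ensembl identifier, and 5 repeated entries were left out.

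Counts were tested in R 4.3.3 with edgeR 4.0.16 (filterByExpr, TMM, quasi-likelihood test, no covariates) on all 14754 genes kept, with Benjamini-Hochberg adjustment over all of them and a call at 0.05. Intervals are at the 95% level. DESeq2 1.42.0 was the alternative, and other scalings, filters and left-out mice are given in the closing section. P-values measure the spread between these mice. Replicates differed by more than sampling noise.

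The named genes are the 10 members, other Cyp2d or Cyp2j genes with at least 10 counts in 1 library, Tet1, called neighbours of the clusters and, per list, the called genes or else the 2 with the smallest p, of which 1 is not reported here. The members and lists were chosen with earlier results of these data known. Promoters and positions are from RefSeq (GRCm38.p6), and transcript sequences are from GENCODE M1, matched by symbol with the longest coding sequence kept. Identity was computed over global alignments with Biopython 1.88, and gaps counted as differences.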

Additional observations from a re-analysis of the deposited data

Results flagged for a closer look

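Among 28 named genes, 1 had a TET1 KO liver far from the other 3. These 28 did not include Tet1, the cell type markers or the genes named after their values were seen. Cyp2d41-ps was at 8.70 CPM in TET1 KO 1 and at 2.82 to 3.58 CPM in the other TET1 KO livers, and the gap took 0.870 of the range of the group (Dixon's ratio, above its 95% critical value for 4 samples). Chance gives about 1 such case in 20 genes. Without this liver the log2 fold change was 0.62.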

How the results depend on the processing

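The number of members called higher and the number called lower stayed at 0 in every alternative tried: DESeq2, DESeq2 size factors in edgeR, library size only, no filter, at least 10 counts in every library (which left Cyp2d11 untested), robust dispersions, an adjusted p under 0.1, and each mouse left out (0 to 0). Of 139 alternative values of the members' log2 fold changes, 137 kept their direction and side of the threshold. Cyp2d26 turned from -0.08 to 0.01 without WT replicate 2 (left-out range -0.18 to 0.01), and Cyp2j9 from 0.20 to -0.03 without TET1 KO replicate 1 (range -0.03 to 0.51). The lowest adjusted p of a member over all alternatives was 0.0867, for Cyp2j6. Among the lists, DESeq2 called 5 Cyp2c genes against 2 in edgeR, 2 Cyp3a genes against 1, and Hmox1, Nr1i3 and Fmo2 where edgeR called 0. Hmox1, Alas1 and Fads2 passed, all lower, without TET1 KO replicate 4. With all mice, Fads2, of the arachidonic acid list, had a log2 fold change of -1.12 and edgeR adjusted p = 0.158. Cyp2d37-ps passed in DESeq2 (0.0341), with the replicate block (0.0266) and without TET1 KO replicate 4 (0.044). With robust dispersions the Cyp2a and Cyp2b call and Selenbp2 (0.0756) were lost.

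The labels do not say whether the shared replicate numbers mark pairs. Same-numbered livers had correlations of their deviations of 0.21, -0.12 and -0.10, and the other combinations ran from -0.3 to 0.31. With so few livers these values cannot exclude pairing. Replicate 4 exists only in TET1 KO, so a replicate block takes TET1 KO 4 out of the comparison. The block is thus not separate from leaving that mouse out. With a replicate block 0 members were called higher and 0 lower, while 1326 genes were called in all, against 298 without the block. The block also gave 0 Cyp3a calls against 1, and 4 Cyp2c calls against 2, and it called Alas1, Hmox1, Fmo2 and Fads2. It further called Hsd3b5 and C6 of the male-biased list. Over all genes, calls ranged from 38 (without WT replicate 2) to 891 (without TET1 KO replicate 4) when 1 mouse was left out, and DESeq2 called 1332. The causes were not tested. For Cyp2d11, at 5 to 25 counts a library, and Cyp2d12, counting error limits precision.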
